A study of Rattus norvegicus with 8 samples.

Results

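The comparison described here asks whether a completed period of silence leaves a trace in the transcription of neurons that have since been allowed to fire again. Rat neuron cultures that had been silenced for 24 h, washed for 48 h and then given vehicle (TH) were set against cultures that received vehicle at both times (HH). It takes 4 of the 8 libraries of the series, 2 for each group, and all 11372 genes with enough counts to test out of 16871 genes in the count table (67.4%).

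The silencing agent was tetrodotoxin (TTX), a toxin that blocks voltage-gated sodium channels and so stops action potentials, used at 1 µM. Cultures were co-cultures of cortex and hippocampus from Sprague Dawley pups of postnatal days 1 to 2, although the sample names speak of hippocampal neurons only. The first treatment began on day 14 in vitro and the second on day 17. In TH cultures the first treatment was TTX and the second vehicle, and in HH cultures both were vehicle. The other 4 libraries come from cultures that received TTX in the second treatment, after TTX (TT) or after vehicle (HT). Every culture was washed after the first treatment, was returned to a mixture of saved and fresh medium, and received 2 mM bromouridine (BrU) for the last 30 min of a second treatment of 4 h. Bromouridine is built into RNA as it is made, so that pulling down the labelled RNA gives the transcripts synthesised in that window rather than the stored pool. Nothing in the sample descriptions says whether the libraries of a group came from separate cultures or litters, so p-values reflect only how far these libraries differ from each other, which can be technical variation.

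Neurons answer a rise in firing with a fast wave of transcription factors such as Fos, Npas4 and the Nr4a receptors, followed by a slower wave of effectors such as the neurotrophin Bdnf. Calcium entry and the ERK kinase pathway drive much of this response, in part through CREB, a factor that binds the cAMP response element. Lasting silence is known to make neurons scale their excitatory synapses up, a form of homeostatic plasticity that involves AMPA receptors, neuronal pentraxins and retinoic acid signalling.

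Total counts per library ran from 3489176 to 4959887, so that 1 CPM, the unit used here for counts scaled to library size with TMM factors, stood for 3.24 to 4.94 reads in the TH and HH libraries. The cultures carried neuronal transcripts throughout: the neuronal splicing factor Rbfox3 stood at 576 and 683 CPM in TH and at 516 and 514 CPM in HH. Astrocyte transcripts were also plain, with Gfap at 489 and 349 CPM in TH against 337 and 368 CPM in HH. HH replicate 1 stood apart from HH replicate 2 and from both TH libraries, and was closest to HT replicate 1 (r = 0.982 across genes). Its log2 CPM correlated with HH replicate 2 at r = 0.974 across genes, against 0.983 between the TH libraries, 0.987 between the TT libraries and 0.982 between the HT libraries. The HH libraries differed by more than 2-fold in 546 tested genes (4.8%), and the TH libraries in 180 (1.58%). HH replicate 1 was the highest of the 4 libraries in 3452 genes (30.4%) and the lowest in 3712 (32.6%). Both HH libraries are therefore given separately in what follows. The Y-linked gene Eif2s3y stood at 0.276 and 50.4 CPM in TH and at 0 and 56.1 CPM in HH. TH and HH thus each held 1 library with the transcript and 1 nearly without it. In TT it stood at 0.747 and 0 CPM and in HT at 0.517 and 53.6 CPM, so TT and HT were not balanced for it.

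No gene differed between TH and HH after correction over all tested genes (0 of 11372, 0%; smallest adjusted p = 0.891, edgeR's quasi-likelihood F test, adjusted by Benjamini-Hochberg), and DESeq2 and limma-voom also gave 0. Without adjustment, 464 genes (4.08%) had p under 0.05 in edgeR, of which 234 (2.06%) were higher and 230 (2.02%) lower in TH. DESeq2 counted 264 such genes, 51 higher and 213 lower. Both TH libraries lay above both HH libraries in 1896 genes (16.7%) and below both in 1524 (13.4%). With 2 libraries against 2, an exact permutation test of a single gene has 6 assignments and cannot go below p = 0.333. Separation in a given direction is a single assignment of these 6, so shares of this size also arise between groups that do not differ.

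The choice of HH library decided how large the difference looked. Against HH replicate 1 alone, edgeR called 121 genes at an adjusted p under 0.05 (1.06%), 8 higher (0.0703%) and 113 lower (0.994%) in TH, and 1657 genes (14.6%) had an unadjusted p under 0.05, 672 higher (5.91%) and 985 lower (8.66%). Against HH replicate 2 alone it called 0 (0%), and 269 genes (2.37%) had an unadjusted p under 0.05, 158 higher (1.39%) and 111 lower (0.976%). In both of these fits the single HH library is assumed to vary as the other groups do. For the 113 genes called lower, the median log2 difference was -1.17 against HH replicate 1, and the same genes had a median of -0.06 against HH replicate 2, with a range of -0.92 to 0.62. These genes were picked for their distance from HH replicate 1, so a smaller difference against HH replicate 2 follows in part from that choice. Across all tested genes, the TH minus HH differences of libraries numbered 1 and of libraries numbered 2 correlated at r = -0.0911 (rho = -0.14). They had the same sign in 44.1% of genes. The other pairing set TH replicate 1 minus HH replicate 2 against TH replicate 2 minus HH replicate 1. It gave r = -0.0367 (rho = 0.0436) and the same sign in 52.3% of genes. Both pairings are descriptions.

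**Figure D1:**
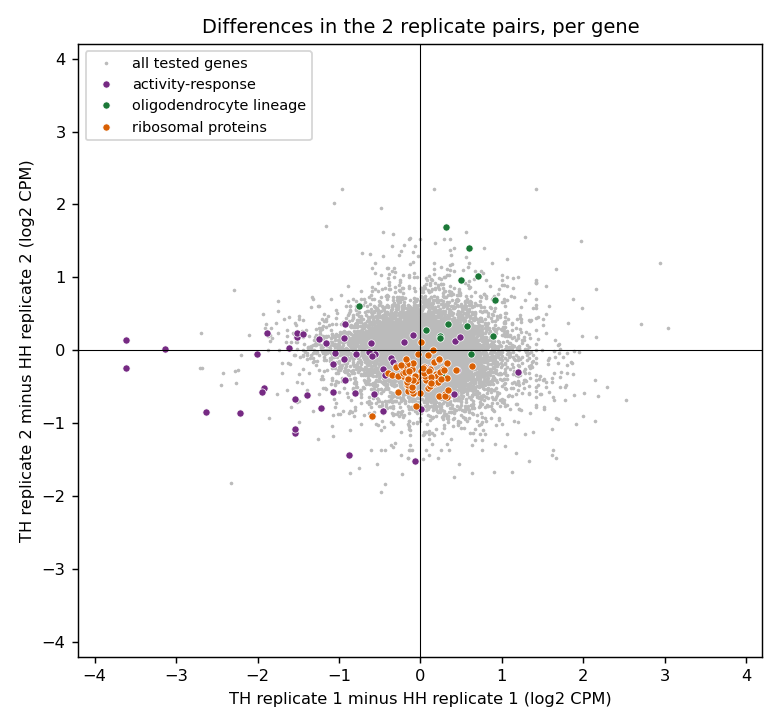
Each point is 1 tested gene, placed by the log2 CPM difference between TH replicate 1 and HH replicate 1 (x axis) and between TH replicate 2 and HH replicate 2 (y axis), with coloured points for activity-response genes, oligodendrocyte-lineage markers and ribosomal protein genes; 1 gene lies outside the plotted range. Activity-response genes spread far to the left on the x axis, where HH replicate 1 enters (median -1.34 for the rapid and -0.80 for the later list). On the y axis the rapid genes have a median near 0 (-0.05), and the later genes one of -0.32. Most oligodendrocyte-lineage genes lie above 0 on both axes.

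The promoters of the activity-response genes introduce this group, because the cAMP response element is the site named above through which CREB acts on them. The element searched for was the full palindrome TGACGTCA, and its core TGACG on either strand, in the 250 bases before the start in RefSeq (GRCr8). A full palindrome contains the core on both strands, so the core count includes it. Of the rapid genes, 15 of 22 tested had a promoter entry, and 10 of these (66.7%) held the core and 3 (20%) the palindrome. Of the later genes, 25 of 30 had an entry, and 14 (56%) held the core and 4 (16%) the palindrome. Among the 8627 tested genes with an entry the shares were 29.1% and 3.11%, and among all 27457 genes with a promoter entry they were 20% and 1.78%. Promoters are shown for genes whose values follow, those of the rapid gene Nr4a1 (chr7:134259888-134260137, plus strand), of the rapid gene Egr2 (chr20:21054442-21054691, minus strand) and of the later gene Sik1 (chr20:9958647-9958896, minus strand), with core matches in capitals. A match says that these letters occur in the window, not that the site is used.
Nr4a1: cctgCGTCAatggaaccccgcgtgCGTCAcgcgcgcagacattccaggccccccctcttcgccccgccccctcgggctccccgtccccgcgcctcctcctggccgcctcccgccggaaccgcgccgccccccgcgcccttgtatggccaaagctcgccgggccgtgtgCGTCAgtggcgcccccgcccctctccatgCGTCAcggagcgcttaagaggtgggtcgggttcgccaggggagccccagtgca
Egr2: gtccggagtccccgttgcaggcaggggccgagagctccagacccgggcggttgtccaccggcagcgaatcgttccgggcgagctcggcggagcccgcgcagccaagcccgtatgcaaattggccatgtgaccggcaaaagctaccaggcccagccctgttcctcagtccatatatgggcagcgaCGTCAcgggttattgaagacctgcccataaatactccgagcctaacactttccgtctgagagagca
Sik1: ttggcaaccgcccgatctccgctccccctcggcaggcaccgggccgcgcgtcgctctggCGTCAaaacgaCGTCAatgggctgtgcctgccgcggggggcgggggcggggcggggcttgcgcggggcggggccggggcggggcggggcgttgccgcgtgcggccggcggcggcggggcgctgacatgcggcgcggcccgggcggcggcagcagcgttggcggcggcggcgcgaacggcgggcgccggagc

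Rapid activity-response genes were high in one HH library and near the TH level in the other. Nr4a1, an orphan nuclear receptor whose promoter holds 4 core matches, stood at 12.4 and 11.5 CPM in TH and at 158 and 10.4 CPM in HH replicates 1 and 2. Npas4, a neuron-specific transcription factor, stood at 3.87 and 3.24 CPM in TH and at 53.0 and 3.91 CPM in HH. Arc, which regulates AMPA receptor endocytosis, stood at 8.56 and 3.64 CPM in TH and at 41.6 and 7.04 CPM in HH. For all 3 genes HH replicate 1 was by far the highest of the 4 libraries, and HH replicate 2 lay in or close to the TH range. Fos, the AP-1 subunit, followed the same order with 9.67 and 6.88 CPM in TH against 37.0 and 5.74 CPM in HH. The zinc-finger factor Egr2 was among the few with both TH libraries below both HH libraries, at 4.70 and 4.05 CPM in TH against 19.4 and 6.26 CPM in HH (log2 fold change -1.53 ± 0.47 SE, edgeR adjusted p = 0.891).

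Of the 22 rapid genes tested out of 27 listed, 19 had a negative log2 fold change and 3 a positive one, with a median of -0.86 against 0.00114 over all tested genes. HH replicate 1 was the highest of the 4 libraries in 18 of the 22. Both TH libraries lay below both HH libraries in 4 of the 22 (18.2%, against 13.4% of all tested genes) and above both in 1, Jun. Against HH replicate 1 alone the median was -1.5 and 13 of the 22 passed the adjusted threshold (1.06% of all tested genes did), while against HH replicate 2 alone the median was 0.08 and none passed. Summed over the list, TH held 370 and 319 CPM and HH held 1020 and 329 CPM.

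**Figure D2:**
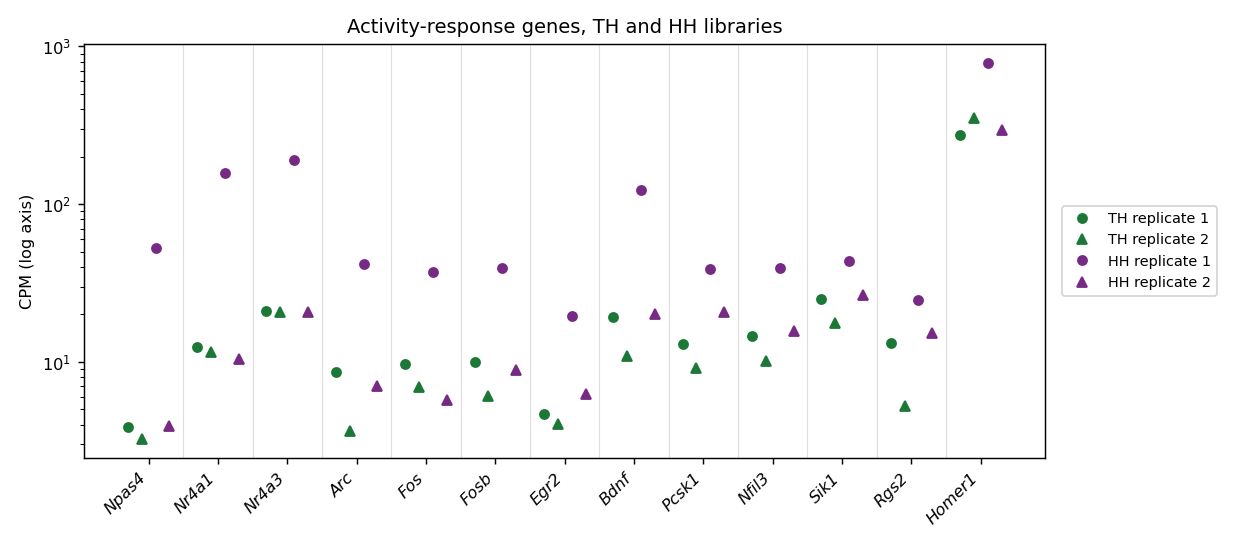
CPM on a log axis for 13 activity-response genes in the 2 TH libraries (green) and the 2 HH libraries (purple), with circles for replicate 1 and triangles for replicate 2. HH replicate 1 is the highest library for every gene shown, and HH replicate 2 lies in or near the TH range for Npas4, Nr4a1, Nr4a3, Fos and Homer1 and above both TH libraries for Pcsk1, Nfil3, Sik1 and Rgs2.

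Later activity-response genes lay below both HH libraries in 16 of 30 cases (53.3%, against 13.4% of all tested genes) and overlapped in the other 14. HH replicate 1 was the highest of the 4 TH and HH libraries in 27 of the 30, against 30.4% of all tested genes. Where it was highest, the order turned on HH replicate 2 alone, so the 13.4% is not a like base. Pcsk1, a convertase that processes prohormones and proneurotrophins, stood at 13.0 and 9.11 CPM in TH and at 38.5 and 20.6 CPM in HH (log2 fold change -1.43 ± 0.38, unadjusted p = 0.00388, edgeR adjusted p = 0.891). The bZIP repressor Nfil3 stood at 14.6 and 10.1 CPM in TH and at 39.2 and 15.7 CPM in HH. The salt-inducible kinase Sik1, whose promoter is printed above, stood at 24.9 and 17.6 CPM in TH and at 43.8 and 26.6 CPM in HH. In all 3 genes both TH libraries were below both HH libraries, and HH replicate 1 was the highest. Rgs2, a regulator of G protein signalling, had 13.3 and 5.26 CPM in TH against 24.7 and 15.1 CPM in HH. Bdnf also had no overlap, but its distance lay almost wholly in HH replicate 1, with 19.3 and 10.9 CPM in TH against 122 and 20.1 CPM in HH. The scaffold gene Homer1 overlapped, with 276 and 350 CPM in TH against 787 and 297 CPM in HH.

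Of the 30 later genes tested out of 32 listed, 28 had a negative log2 fold change and the median was -0.60. Both TH libraries lay below both HH libraries in 16 of the 30 (53.3%, against 13.4% of all tested genes) and above both in 0. HH replicate 1 was the highest of the 4 libraries in 27 of the 30. At an unadjusted p under 0.05, 9 were lower (2.02% of all tested genes were) and none was higher. The median was -0.88 against HH replicate 1 alone, where 7 of the 30 passed the adjusted threshold in edgeR (1.06% of all tested genes did), and -0.16 against HH replicate 2 alone, where 23 of the 30 were still below 0 and none passed. Leaving out HH replicate 1 therefore kept the sign and reduced the median more than 1.5-fold.

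Genes that damp the ERK pathway followed the rapid group. The ERK phosphatase gene Dusp6 stood at 14.6 and 16.4 CPM in TH and at 57.4 and 11.5 CPM in HH, so HH replicate 2 was the lowest of the 4 libraries and HH replicate 1 the highest. Dusp5, a nuclear phosphatase of ERK, had 9.39 and 5.26 CPM in TH against 35.5 and 10.4 CPM in HH, with no overlap. Of the 13 tested genes of this list, 12 had a negative log2 fold change, with a median of -0.64. That median was -1.2 against HH replicate 1 alone and 0.12 against HH replicate 2 alone, a change of sign.

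The genes with the smallest p among those whose groups did not overlap and whose mean was 5 CPM or more are taken next, 12 in each direction. All of them had an edgeR adjusted p of 0.891. Highest on the side of TH by p was Unc119b, a lipid-binding chaperone of ciliary proteins, at 21.3 and 20.4 CPM in TH against 10.8 and 11.7 CPM in HH (log2 fold change 0.88 ± 0.20, unadjusted p = 0.000849). Tnfrsf19, a receptor of the tumour necrosis factor family, stood at 48.1 and 38.2 CPM in TH and at 25.3 and 25.3 CPM in HH. Gal3st1, the sulfotransferase that makes the myelin lipid sulfatide, stood at 11.6 and 11.9 CPM in TH and at 6.17 and 6.26 CPM in HH (log2 fold change 0.92 ± 0.24). In these 3 genes the HH libraries lay close together, so neither HH library alone set the difference. Ranking by p among genes without overlap favours such genes, so their closeness is no separate support for a difference. The DNA repair nuclease gene Fan1 had 22.4 and 26.7 CPM in TH against 11.7 and 16.7 CPM in HH, and the tetraspanin gene Tspan2, known from oligodendrocytes, had 42.8 and 52.2 CPM in TH against 29.0 and 35.2 CPM in HH. The other 7 were Pdcd2l, Pgp, Abtb2, Stk36, Dcakd, Azin2 and Afap1l2, with log2 fold changes between 0.43 and 0.80.

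On the lower side, Mitf, the transcription factor known for melanocytes, had the smallest p, with 137 and 144 CPM in TH against 217 and 198 CPM in HH (log2 fold change -0.56 ± 0.13, unadjusted p = 0.000867, edgeR). The retinoid X receptor gene Rxrg stood at 13.8 and 14.8 CPM in TH and at 28.1 and 22.2 CPM in HH (log2 fold change -0.80 ± 0.20). Tyr, which encodes the melanin enzyme tyrosinase, stood at 9.39 and 7.89 CPM in TH and at 13.9 and 16.4 CPM in HH. For Mitf and Rxrg HH replicate 1 was the higher HH library, and for Tyr HH replicate 2 was. Lgi2, a secreted leucine-rich repeat protein gene, had 9.39 and 5.67 CPM in TH against 23.1 and 13.8 CPM in HH (log2 fold change -1.31 ± 0.38). St8sia4, which adds polysialic acid to the adhesion molecule NCAM, had 30.7 and 38.9 CPM in TH against 54.9 and 47.7 CPM in HH. Pcsk1 also belongs here, and the other 6 were Slc35g2, Hnrnph2, Plcxd2, Slco1b2, Grb14 and Lancl3, with log2 fold changes between -0.88 and -0.42.

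Ranking instead by the gap between the nearest TH and HH libraries brought in genes of low level. At a gap of at least 0.5 on the log2 scale there were 67 higher (0.589% of tested genes) and 35 lower (0.308%). Cd9, a tetraspanin gene, had 16.0 and 16.2 CPM in TH against 9.87 and 9.13 CPM in HH. Osgep, a subunit of the complex that modifies transfer RNA, had 8.56 and 8.10 CPM in TH against 4.01 and 3.91 CPM in HH. On the other side, C1ql3, a secreted synaptic protein gene, had 8.56 and 7.89 CPM in TH against 13.6 and 12.5 CPM in HH, and Dnajb1, a heat shock co-chaperone gene, had 11.3 and 12.3 CPM in TH against 18.8 and 17.7 CPM in HH. Within each of these 4 genes the libraries of a group lay close together, which a ranking by the gap favours.

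The same history was also read under a second TTX, in TT against HT, which share no library with TH and HH. There too no gene passed the adjusted threshold (0 of 11372, 0%; 267 at an unadjusted p under 0.05, 2.35%, edgeR). Of the 1896 genes higher in both TH libraries, 1196 (63.1%) were higher in TT than in HT, against 50.1% of all tested genes, and of the 1524 lower ones, 930 (61%) were lower in TT, against 49.9%. Of the 12 genes of smallest p, 9 of the higher were above 0 in TT against HT, and all 12 of the lower were below 0. Lgi2 differed by about as much in both, with a log2 fold change of -1.26 ± 0.40 for TT against HT. Unc119b did not, at -0.19 ± 0.19. A test of the difference between the 2 contrasts gave 0 genes at an adjusted p under 0.05 in edgeR (0%), with 186 at an unadjusted p under 0.05 (1.64%). Over all tested genes the TH minus HH and TT minus HT differences had a correlation of r = 0.266, and HH replicate 1 and HT replicate 1 deviated from their groups together (r = 0.447); both are descriptions. Between libraries of like number the correlation was 0.329 (replicates 1) and 0.25 (replicates 2). Across numbers it was -0.0666 (45.3% of genes with the same sign) for TH replicate 1 minus HH replicate 1 with TT replicate 2 minus HT replicate 2, and -0.00798 (50.3%) for TH replicate 2 minus HH replicate 2 with TT replicate 1 minus HT replicate 1. In these pairs a positive correlation appeared between libraries of like number and not across numbers. The joint deviation of HH replicate 1 and HT replicate 1 adds to the like-number values and takes from those across numbers. Whether TH against HH and TT against HT share a direction apart from replicate number was not tested.

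**Figure D3:**
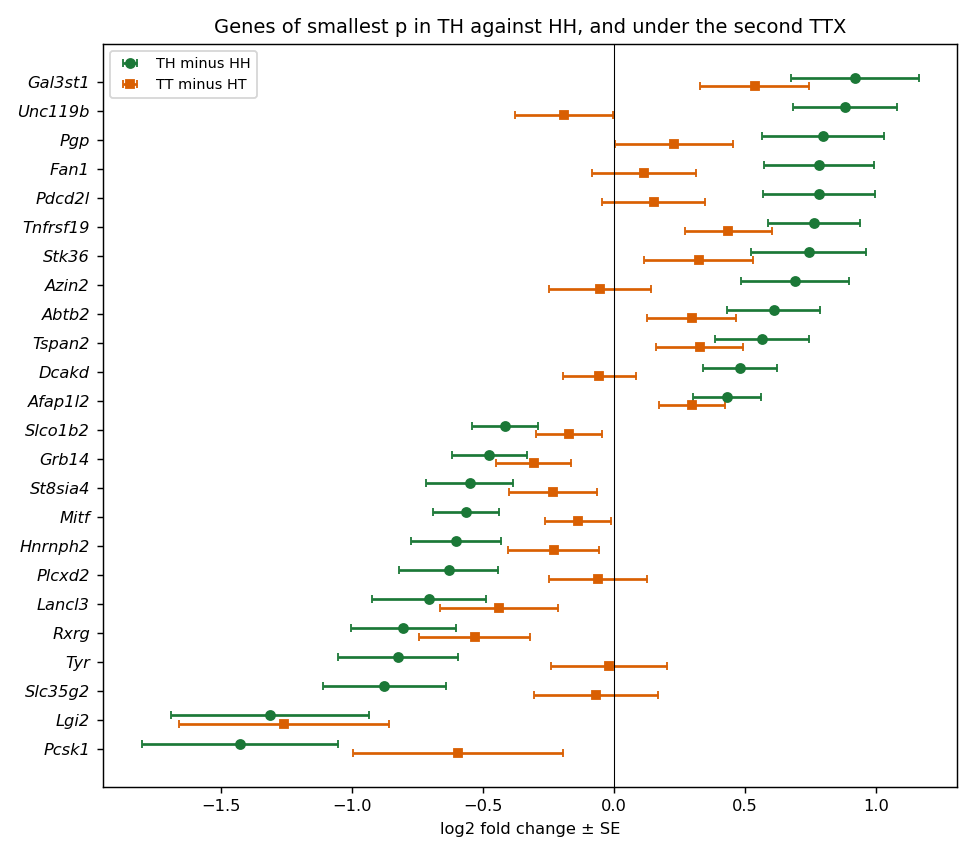
Log2 fold changes with standard errors for the 24 genes of smallest p, for TH minus HH (green circles) and TT minus HT (orange squares). The 12 lower genes are all below 0 in both contrasts, and 9 of the 12 higher genes are above 0 in both.

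Synaptic genes had medians close to 0 on the log2 scale, with most members below it. Of the 33 tested genes of the synaptic scaling list, 13 were above and 20 below 0, with a median of -0.09 that was 0.02 against HH replicate 1 and -0.05 against HH replicate 2. Nptx2, a pentraxin that clusters AMPA receptors, had 18.5 and 12.9 CPM in TH against 27.8 and 19.8 CPM in HH. The AMPA receptor subunit genes Gria1 and Gria2 overlapped, with Gria1 at 1731 and 2134 CPM in TH against 1892 and 2044 CPM in HH, and Gria2 at 633 and 815 CPM in TH against 985 and 734 CPM in HH. Cacng3, an auxiliary AMPA receptor subunit gene, had 81.8 and 84.0 CPM in TH against 155 and 103 CPM in HH (log2 fold change -0.64 ± 0.19, edgeR adjusted p = 0.891). Among AMPA receptor genes and partners 10 of 26 were above 0, with a median of -0.07 (0.03 against HH replicate 1), and among NMDA, kainate and metabotropic receptor genes 5 of 21, with a median of -0.12 (-0.04 against HH replicate 2 and -0.35 without TH replicate 2). The kainate receptor gene Grik1 was lower in both TH libraries, at 203 and 239 CPM against 308 and 251 CPM in HH.

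GABA receptor and inhibitory synapse genes had 19 of 24 members below 0 and a median of -0.25, which was -0.41 against HH replicate 1 and -0.08 against HH replicate 2. Gabra3, a GABA-A receptor subunit gene, had 68.0 and 72.7 CPM in TH against 99.0 and 79.8 CPM in HH. Presynaptic release genes had 34 of 47 below 0 (median -0.13), and both TH libraries lay below both HH libraries in 11 of the 47 (23.4%, against 13.4% of all tested genes). That median was -0.07 without HH replicate 1 and -0.22 without TH replicate 1. Unc13a, which primes synaptic vesicles, had 80.9 and 70.8 CPM in TH against 132 and 89.2 CPM in HH. Postsynaptic scaffold genes had 21 of 31 below 0 and synaptic adhesion genes 31 of 45. The adhesion median of -0.19 was -0.36 against HH replicate 1 and -0.01 against HH replicate 2, and without TH replicates 1 and 2 in turn it was -0.06 and -0.35. The scaffold gene Homer3 ran the other way, with 8.84 and 6.48 CPM in TH against 3.08 and 4.17 CPM in HH. Perineuronal net and matrix genes were divided, 8 above and 9 below.

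Ion channel genes were mostly below 0 as well. Sodium channel genes and partners, the family that TTX blocks, had 12 of 14 below 0, with a median of -0.18 (-0.10 against HH replicate 2 and -0.27 without TH replicate 2) and with Scn3b at 124 and 120 CPM in TH against 138 and 158 CPM in HH. Scn2b, another auxiliary subunit gene, was higher in both TH libraries, at 19.3 and 18.0 CPM against 13.3 and 14.3 CPM in HH. Potassium and HCN channel genes had 34 of 48 below 0 (median -0.18, and -0.10 against HH replicate 2), and calcium channel genes 10 of 15. Kcnk2, which encodes the TREK-1 leak channel, had 77.1 and 77.3 CPM in TH against 130 and 93.6 CPM in HH.

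**Figure D4:**
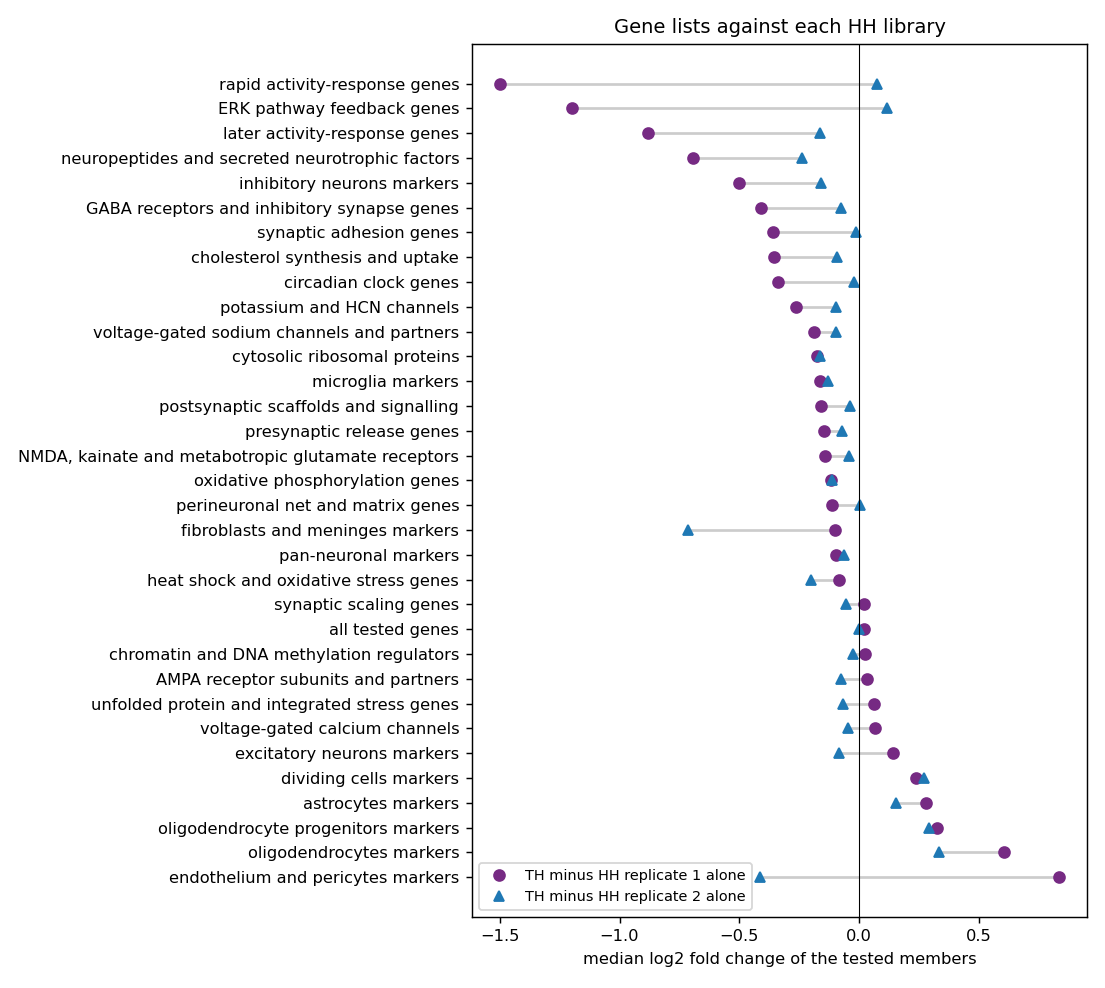
Median log2 fold change of the tested members of each gene list, for TH against HH replicate 1 alone (purple circles) and against HH replicate 2 alone (blue triangles). The rapid activity-response genes lie at -1.5 and 0.08, and the oligodendrocyte lists lie above 0 in both.

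Neuropeptide and neurotrophic factor genes had 19 of 21 tested members below 0 and a median of -0.58, -0.69 against HH replicate 1 and -0.24 against HH replicate 2. Vip, the vasoactive intestinal peptide gene of a class of interneurons, had 8.84 and 8.10 CPM in TH against 21.0 and 11.7 CPM in HH (log2 fold change -0.94 ± 0.29). Its groups did not overlap, and HH replicate 1 was the higher HH library. Without TH replicate 1 the list's median was -0.78 and without TH replicate 2 it was -0.29. Inhibitory neuron markers had 10 of 12 below 0, and their median of -0.31 was -0.04 without TH replicate 2, -0.50 against HH replicate 1 and -0.16 against HH replicate 2. Gad2, which makes GABA, had 298 and 305 CPM in TH against 443 and 320 CPM in HH. Excitatory neuron markers had 7 of 11 above 0 and a median of 0.07, which changed sign with the HH library. It was 0.14 against HH replicate 1 (7 of 11 above 0) and -0.08 against HH replicate 2 (3 of 11). Pan-neuronal markers had 4 of 10 above 0 and a median of -0.10. That median was -0.10 against HH replicate 1 (4 of 10 above 0) and -0.06 against HH replicate 2 (1 of 10).

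Cholesterol synthesis and uptake genes had 21 of 24 below 0 with a median of -0.23. Both TH libraries lay below both HH libraries in 9 of the 24 (37.5%, against 13.4%). Hmgcs1, an early enzyme of the pathway, had 189 and 162 CPM in TH against 247 and 200 CPM in HH, and Ebp, a late sterol isomerase, had 3.87 and 3.44 CPM in TH against 7.09 and 6.26 CPM in HH. The median was -0.35 against HH replicate 1 and -0.09 against HH replicate 2. Heat shock and oxidative stress genes had 10 of 12 below 0, with a median of -0.15 (-0.30 without TH replicate 1, -0.05 without TH replicate 2 and -0.08 against HH replicate 1), among them the chaperone gene Hspa8 at 796 and 624 CPM in TH against 988 and 837 CPM in HH. Unfolded protein response genes had 11 of 20 above 0, clock genes 7 of 16 and chromatin regulators 13 of 24. Against HH replicate 1 alone these counts were 11, 7 and 15, with medians of 0.06, -0.34 and 0.02. Against HH replicate 2 alone they were 5, 7 and 9, with medians of -0.07, -0.02 and -0.02. The histone deacetylase gene Hdac9 was one of those where HH replicate 1 alone was high, at 225 and 214 CPM in TH against 1064 and 257 CPM in HH.

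Ribosomal protein genes gave a small difference that did not depend on which HH library was used but did depend on the TH library. Of 75 tested, 63 were below 0, with a median of -0.16, and both TH libraries lay below both HH libraries in 26 (34.7%, against 13.4%). The median was -0.17 against HH replicate 1 and -0.16 against HH replicate 2. Without TH replicate 1 it was -0.39 and without TH replicate 2 it was 0.02. Rpl4, a protein of the large subunit, had 232 and 220 CPM in TH against 306 and 272 CPM in HH, and Rps29, of the small subunit, had 27.4 and 17.2 CPM in TH against 41.6 and 32.6 CPM in HH. Oxidative phosphorylation genes behaved alike, with 43 of 55 below 0 and a median of -0.11, -0.26 without TH replicate 1 and 0.08 without TH replicate 2.

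Of 15 tested oligodendrocyte-lineage genes, 9 were higher in both TH libraries than in both HH libraries (60%, against 16.7% of all tested genes). None passed the adjusted threshold in edgeR (0% of all tested genes did). Gpr17, a receptor of differentiating progenitors, had 9.39 and 13.8 CPM in TH against 6.48 and 6.78 CPM in HH (log2 fold change 0.82 ± 0.33, edgeR adjusted p = 0.891). Cspg4, the progenitor proteoglycan NG2, had 85.9 and 93.9 CPM in TH against 67.5 and 73.0 CPM in HH. Both genes had no overlap, and their HH libraries lay close together, which the choice of list members by smallest p favours. Bcas1 had 278 and 431 CPM in TH against 224 and 134 CPM in HH, and the myelin transcription factor gene Myrf had 24.0 and 36.0 CPM in TH against 14.5 and 17.5 CPM in HH.

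Over the 15 tested markers of progenitors and oligodendrocytes, 12 were above 0 with a median of 0.36, and in 9 (60%, against 16.7% of all tested genes) both TH libraries lay above both HH libraries. The 3 below 0 were Olig1, Vcan and Mobp. For the progenitor markers the median was 0.33 against HH replicate 1 and 0.29 against HH replicate 2, and for the oligodendrocyte markers it was 0.61 and 0.33. The listed oligodendrocyte genes Mog, Mag, Ermn and Opalin did not pass the filter on low counts. Summed over the tested markers, TH held 254 and 271 CPM and HH held 176 and 239 CPM for oligodendrocytes, and TH held 806 and 1040 CPM and HH held 738 and 628 CPM for progenitors. In these bulk cultures more cells of a type and more RNA made per cell cannot be told apart. In TT against HT, 12 of the 15 were above 0 (median 0.40), and TT replicate 2 was the highest of all 8 libraries for 11 of the 15. Cspg4 was not among the 12, with 92.4 and 92.8 CPM in TT against 114 and 120 CPM in HT (log2 fold change -0.34 ± 0.12).

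**Figure D5:**
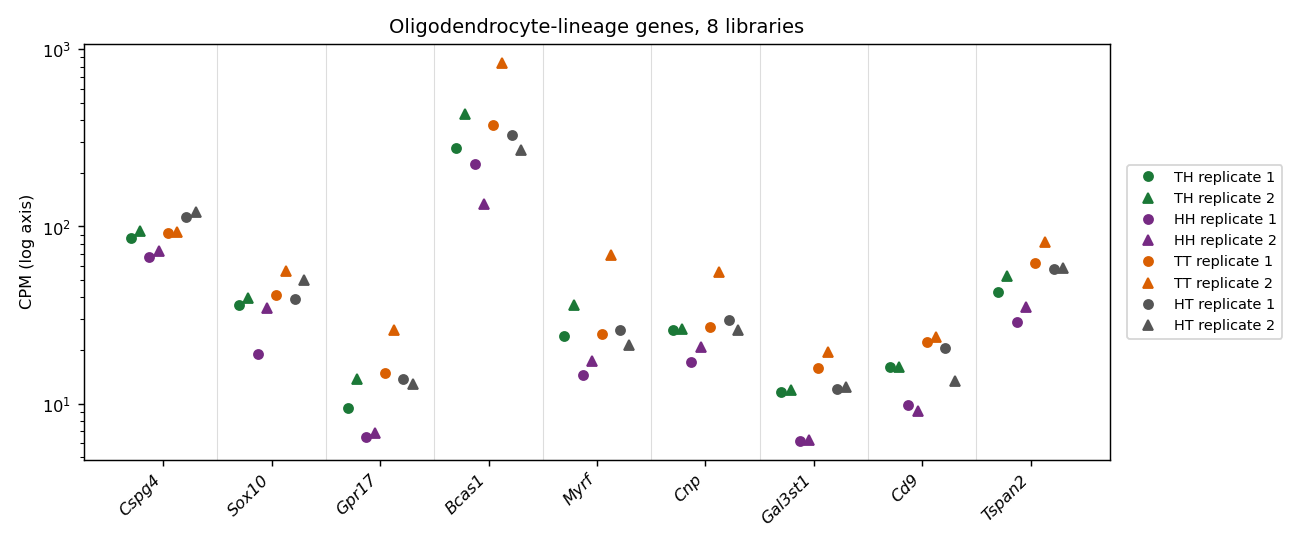
CPM on a log axis for 9 oligodendrocyte-lineage genes in all 8 libraries, with circles for replicate 1 and triangles for replicate 2. Only genes with both TH libraries (green) above both HH libraries (purple) are shown, so that order follows from the choice of genes. Of the 15 tested markers on the oligodendrocyte lists, 9 had this order, and Olig1, Vcan and Mobp, not shown, were below 0. Gal3st1, Cd9 and Tspan2 are not on those lists. TT replicate 2 (orange triangle) is the highest library for most of the genes shown.

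Markers of astrocytes and of dividing cells were also mostly above 0, with no member past the adjusted threshold. Astrocyte markers had 7 of 11 above 0, and their median of 0.25 was 0.025 without TH replicate 1 and 0.16 without HH replicate 1. The gap junction gene Gja1 had 82.9 and 82.0 CPM in TH against 65.4 and 66.8 CPM in HH. Summed over the tested astrocyte markers, TH held 2150 and 1980 CPM and HH held 2360 and 1940 CPM, with HH replicate 1 the highest. Markers of dividing cells had 9 of 10 above 0 (median 0.26), and a median of 0.15 without TH replicate 2. Both TH libraries lay above both HH libraries in 6 of the 10 (60%, against 16.7% of all tested genes). Among these was the mitotic kinase gene Aurkb, at 4.42 and 2.63 CPM in TH against 1.23 and 1.83 CPM in HH. In TT against HT, 4 of the 10 dividing-cell markers were above 0 (median -0.05), as were 6 of the 11 astrocyte markers (median 0.06). Of the microglia markers 5 of 12 were tested, of the endothelial and pericyte markers 4 of 8 and of the fibroblast markers 2 of 6, and the summed levels of the microglia markers were 14.6 and 19.0 CPM in TH and 18.8 and 21.6 CPM in HH.

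The genes that were lower in HH replicate 1 than in HH replicate 2 formed the other side of the split between the HH libraries. Txnip, an inhibitor of thioredoxin that responds to glucose, had 80.1 and 82.2 CPM in TH against 25.3 and 102 CPM in HH. Pparg, a nuclear receptor of lipid metabolism, had 10.2 and 9.71 CPM in TH against 2.47 and 10.9 CPM in HH. For both genes HH replicate 1 was below the other 3 TH and HH libraries. For Txnip HT replicate 1 was also low, at 34.4 CPM against 80.3 CPM in HT replicate 2. For Pparg both HT libraries were low, at 3.62 and 4.77 CPM. The genes highest in HH replicate 1 over HH replicate 2 were Npas4, Nr4a1, Nr4a3, Trdn, Fos, Bdnf, Arc, Rasl11a, Hapln1, Dusp6, Sema3c and Fosb, of which 8 belong to the activity or ERK lists. Sema3c, a secreted guidance protein gene outside those lists, had 25.7 and 28.1 CPM in TH against 112 and 24.3 CPM in HH.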

How the data were processed

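BrU-labelled RNA was measured in 8 libraries of 4 groups. The deposited table holds read counts per gene, without normalization, made by the authors with FastQC, Bowtie2, TopHat2 and featureCounts on rn6, per the submitters' processing notes; versions, annotation and strand setting were not given in the sources used here, so overlapping and antisense genes cannot be told apart. Another 2 columns could not be tied to a sample and stayed out. Genes were filtered by edgeR's filterByExpr over the groups, which kept 11372, and counts were scaled by TMM. TH was tested against HH in a quasi-likelihood fit of all 8 libraries (edgeR 4.0.16, R 4.3.3; common biological coefficient of variation 0.128, 4 residual degrees of freedom), with Benjamini-Hochberg adjustment at 0.05. The same fit without 1 HH library gave the values against the other HH library alone. Errors of fold changes are standard errors derived from the quasi-likelihood F statistic; log2 CPM used a prior count of 2.

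Named genes were the 12 of smallest p and the 12 of widest gap in each direction among genes with a mean of 5 CPM or more and no overlap of the groups, the 12 in each direction with the largest difference between the HH libraries, up to 4 per list by p, and 8 fixed synaptic and activity genes; genes with placeholder names were left out. Jun, Gfap, the 3 exceptions and 4 unfiltered markers of the oligodendrocyte lists, Pole2, Fam111a, Npy and Stac2 were chosen after their values were seen. The comparison and the 32 gene lists were chosen with earlier results of these data known. Alternatives were DESeq2 1.42.0, limma-voom (limma 3.58.1), other scalings and filters, blocks and libraries left out. The fit was tested on simulated counts. Promoter sequences are from RefSeq (GRCr8). Figures were drawn with matplotlib from the tables.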

Additional observations from a re-analysis of the deposited data

How the results depend on the processing

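TH against HH gave 0 genes at the adjusted threshold in edgeR under every scaling, filter and block tried and in DESeq2 and limma-voom; leaving out single libraries gave 0 to 121. The count at an unadjusted p under 0.05 was 264 in DESeq2, 289 with HH replicate 1 and HT replicate 1 both left out, and 269 to 1657 when single libraries were left out. Genes without overlap then numbered 3500 to 4399 higher and 3348 to 3943 lower, by construction more with fewer libraries. Replicate numbers did not pair TH with HH, where deviations of replicate 1 from the group mean correlated at -0.0534; between HH and HT they correlated at 0.447. With the replicate block the adjusted count was 0 (smallest adjusted p = 0.417) and the unadjusted count 612. A block for Eif2s3y above 10 CPM, chosen after seeing the data, gave 0 and 646.

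Of 83 named genes, 65 kept their sign under every alternative, and of 32 list medians, 19 did. With both HH replicate 1 and HT replicate 1 left out, the log2 fold change was 0.44 for Dusp6, 0.50 for Fos, 0.081 for Homer1, 0.20 for Nr4a1, 0.023 for Nr4a3, 0.62 for Rasl11a, 0.16 for Sema3c, 0.018 for Trdn, 0.34 for Vcan, -0.14 for Pparg and -0.32 for Txnip. In limma-voom it was 0.82 for Eif2s3y and -0.13 for Fam111a. With single libraries left out it ran from -1.88 to 0.44 for Dusp6, -6.55 to 9.76 for Eif2s3y, -1.69 to 1.40 for Fam111a, -2.18 to 0.50 for Fos, -0.014 to 0.47 for Gfap, -0.19 to 0.12 for Gria1, -1.33 to 0.081 for Homer1, -0.27 to 0.10 for Mobp, -1.78 to 0.018 for Npy, -3.73 to 0.20 for Nr4a1, -3.17 to 0.023 for Nr4a3, -0.28 to 0.19 for Olig1, -0.14 to 2.00 for Pparg, -1.86 to 0.62 for Rasl11a, -2.05 to 0.16 for Sema3c, -2.98 to 0.018 for Trdn, -0.32 to 1.68 for Txnip and -0.43 to 0.34 for Vcan. The cause of these changes was not tested. The 2 libraries a group and 3.24 to 4.94 reads per CPM limit what could be detected.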

Other observations

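Pole2, a subunit gene of DNA polymerase epsilon, stood at 4.70 and 978 CPM in TH, at 1248 and 1119 CPM in HH, at 766 and 982 CPM in TT and at 1063 and 1271 CPM in HT, so that TH replicate 1 alone was far below the other libraries. Without TH replicate 2 it was the 1 gene called between TH and HH in edgeR (log2 fold change -7.97, adjusted p = 6.92e-05). Fam111a, a protease gene linked to DNA replication, stood at 23.8 and 2.83 CPM in TH and at 14.2 and 4.70 CPM in HH. Npy, the neuropeptide Y gene, stood at 30.4 and 8.70 CPM in TH and at 36.1 and 24.3 CPM in HH. Stac2 stood at 12.4 and 3.44 CPM in TH and at 17.6 and 14.6 CPM in HH. For Npy and Stac2 TH replicate 2 was the lowest of the 4 libraries.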
